A study of Mus musculus with 12 samples.

Results

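Replication origin and S-phase genes are described here in single blood progenitors of mouse fetuses that lack 1 or 2 routes of DNA damage tolerance. The set was given as 37 gene symbols, and all 37 were found among the 19462 gene symbols of the deposited count tables, each on a single row. By role they fall into 11 licensing genes, 4 genes of helicase activation, 3 of S-phase entry, 3 of nucleotide supply, 12 of the replication fork and 4 of chromatin and histone supply. They were listed by symbol and not by a cut on measured values, but the list was made with earlier results of these data known. All 37 passed edgeR's filter on low counts in the genotype and marker comparisons, so no member was lost.

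The cells are LSK cells from the livers of C57BL/6J fetuses at day 18.5, a sorted gate of blood progenitors that lack lineage markers and carry Sca-1 and Kit. The 12 plates were 3 of wild type (WT), 3 of Rev1-/- (called Rev1 knockout), 2 of PcnaK164R/K164R and 4 of PcnaK164R/K164R;Rev1-/-, the double mutant, with every mutant allele homozygous and no treatment named. Rev1 is a polymerase that copies damaged DNA, and the K164R change takes from the sliding clamp Pcna the lysine that is ubiquitinated at damage. Plates were sorted on 3 dates, here sessions. The first session sorted WT replicate 1, PcnaK164R/K164R replicates 1 and 2 and double mutant replicates 1 and 2, the second only Rev1 knockout replicate 1 with double mutant replicate 3, and the third all other plates. No label ties a plate to an animal, so the p-values measure the spread between plates, which may be technical.

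Before a cell can copy its DNA, the origin recognition complex, Cdc6 and Cdt1 load the MCM helicase onto origins, a step called licensing. Cyclin E with its kinase then drives entry into S phase, Cdc45 and the GINS complex switch the helicase on, and polymerases, clamp loaders and nick-sealing enzymes work at the forks while ribonucleotide reductase supplies nucleotides. E2F transcription factors are known to turn on many of these genes together. Stem cells in the fetal liver divide more than those in adult marrow, and red cell precursors are known for fast S phases.

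Wells were kept with at least 1000 UMIs (molecular tags that count captured transcripts once) outside the spike-ins, which left 3088 of 4608 wells. Plate sums ranged from 212938 to 11617420 UMIs and the 37 genes took between 0.159% and 0.660% of them. The shallowest plate, double mutant replicate 3, had 82 kept wells and only 339 UMIs for the 37 genes together. Levels are given in CPM, counts scaled to a common library total and corrected for composition by TMM, and 1 UMI of that plate stands for 8.68 CPM. It had the lowest level of 27 of the 37 genes. That plate also differed in composition, with a TMM factor of 0.549 against 0.973 to 1.11 in the other plates. Rev1 transcripts were at 10.5 to 18.4 CPM in WT and 1.26 to 5.62 in Rev1 knockout. In double mutant replicates 1 and 2 they were at 1.33 and 2.50, and in replicate 3 at 8.68, from 1 UMI. In double mutant replicate 4 they were at 13.4, within the WT range. Every Rev1 knockout plate and double mutant replicates 1 and 2 thus lay below WT. In PcnaK164R/K164R replicates 1 and 2, labelled wild type for Rev1, they were at 10.5 and 7.51, the second also below the WT range. Some tags from the 3' end may lie outside the deleted part, and the label of replicate 4 was not tested. That plate is called the library labelled double mutant replicate 4. It had the highest level of 16 of the 37 genes.

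Promoters of 6 of the genes are shown because they bracket the results below. They are the 160 bases before the annotated start, from RefSeq on GRCm38.p6, 5′ to 3′ on the gene's strand, and capitals mark matches to an E2F-type motif. The motif was any of TTTCCCGC, TTTCGCGC, TTTGCCGC and TTTGGCGC on either strand, and where 2 matches overlap the capitals run on. Orc1 and Cdc6 are licensing genes with large differences between marker classes, and Mcm5 has a smaller one. Mcm6 and Cdca7 have the motif and no difference past the threshold, and Ccne1 has the largest difference and no match.
Orc1: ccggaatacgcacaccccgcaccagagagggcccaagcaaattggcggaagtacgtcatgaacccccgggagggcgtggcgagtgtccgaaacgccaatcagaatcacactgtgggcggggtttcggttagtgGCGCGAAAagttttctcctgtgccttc
Cdc6: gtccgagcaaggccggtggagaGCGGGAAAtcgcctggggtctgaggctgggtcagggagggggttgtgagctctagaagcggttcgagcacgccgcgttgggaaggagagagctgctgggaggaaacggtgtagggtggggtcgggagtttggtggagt
Mcm5: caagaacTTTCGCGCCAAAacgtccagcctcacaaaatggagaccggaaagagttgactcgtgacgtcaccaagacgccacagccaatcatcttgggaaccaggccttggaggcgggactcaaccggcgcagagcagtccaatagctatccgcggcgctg
Mcm6: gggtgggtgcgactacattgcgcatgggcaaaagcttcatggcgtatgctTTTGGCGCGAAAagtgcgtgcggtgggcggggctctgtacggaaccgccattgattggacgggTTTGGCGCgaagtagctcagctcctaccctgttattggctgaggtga
Cdca7: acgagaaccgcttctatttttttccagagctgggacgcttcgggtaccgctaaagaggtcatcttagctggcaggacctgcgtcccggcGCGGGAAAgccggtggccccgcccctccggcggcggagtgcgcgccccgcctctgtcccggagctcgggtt
Ccne1: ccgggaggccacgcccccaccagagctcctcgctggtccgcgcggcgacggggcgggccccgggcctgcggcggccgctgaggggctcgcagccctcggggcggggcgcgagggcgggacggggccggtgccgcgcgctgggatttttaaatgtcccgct

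The Orc1 stretch is chr4:108579294-108579453 (plus strand), Cdc6 chr11:98907991-98908150 (plus), Mcm5 chr8:75109349-75109508 (plus), Mcm6 chr1:128359706-128359865 (minus), Cdca7 chr2:72476059-72476218 (plus) and Ccne1 chr7:38107491-38107650 (minus). Counted from the annotated start at 0, the first motif base lies at -27 in Orc1, -138 in Cdc6, -153 and -149 in Mcm5, -110, -106 and -47 in Mcm6 and -71 in Cdca7. In windows of 300 bases, 250 before to 50 after the start, 14 of the 29 members with an entry had a match (48.3%), against 704 of all 27025 genes (2.61%). A gene with several windows counted if any held a match: Lig1 had 3 windows, and Mcm7, Fen1 and Uhrf1 had 2 each. The start is that of the window and can lie inside the gene, as for Orc1, whose listed span begins at 108575705. Of the other replication genes listed, 16 of 51 had a match, and of 22 G2 and mitosis genes 1 did. The CCAAT box, searched on both strands, was in 17 of the 29 members and in 41.1% of all genes. Members without an entry were Mcm4, Gmnn, Ccne2, Gins1, Gins2, Pole, Rfc2 and Dscc1. A match is a run of letters and not a measured binding site.

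The first comparison asked whether the 37 genes differ between wells that carry erythroid transcripts and the rest of the same plate. A well was marker-positive with at least 1 UMI of Klf1, the erythroid master regulator, or Rhd, a red cell surface protein. Of the kept wells, 714 were positive, 297 of them by a single marker UMI, and 2374 were negative. Marker-positive wells made up 28.9%, 3.93% and 9.36% of WT replicates 1, 2 and 3, 1.83%, 8.45% and 17.7% of Rev1 knockout, and 24.6% and 15% of the PcnaK164R/K164R plates. In the double mutant they made up 45.1%, 58.6%, 6.10% and 53.3% of replicates 1 to 4. Exact Clopper-Pearson intervals at 95%, which cover counting error only, ran from 24.4% to 33.7% in WT replicate 1 and from 43.4% to 63.0% in the library labelled double mutant replicate 4. The double mutant mean was 40.8% ± 23.8 (SD, n = 4) against 14.1% ± 13.1 (SD, n = 3) in WT, a difference of 26.7 percentage points. It did not pass a two-sided exact permutation test over plates (p = 0.143, 0.357 adjusted over 5 genotype pairs, smallest possible p 0.0286). With every well thinned to 1000 UMIs the means were 13.6% and 2.95%. The groups overlap through double mutant replicate 3, and 3 of its 4 plates lie above every other plate.

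**Figure D1:**
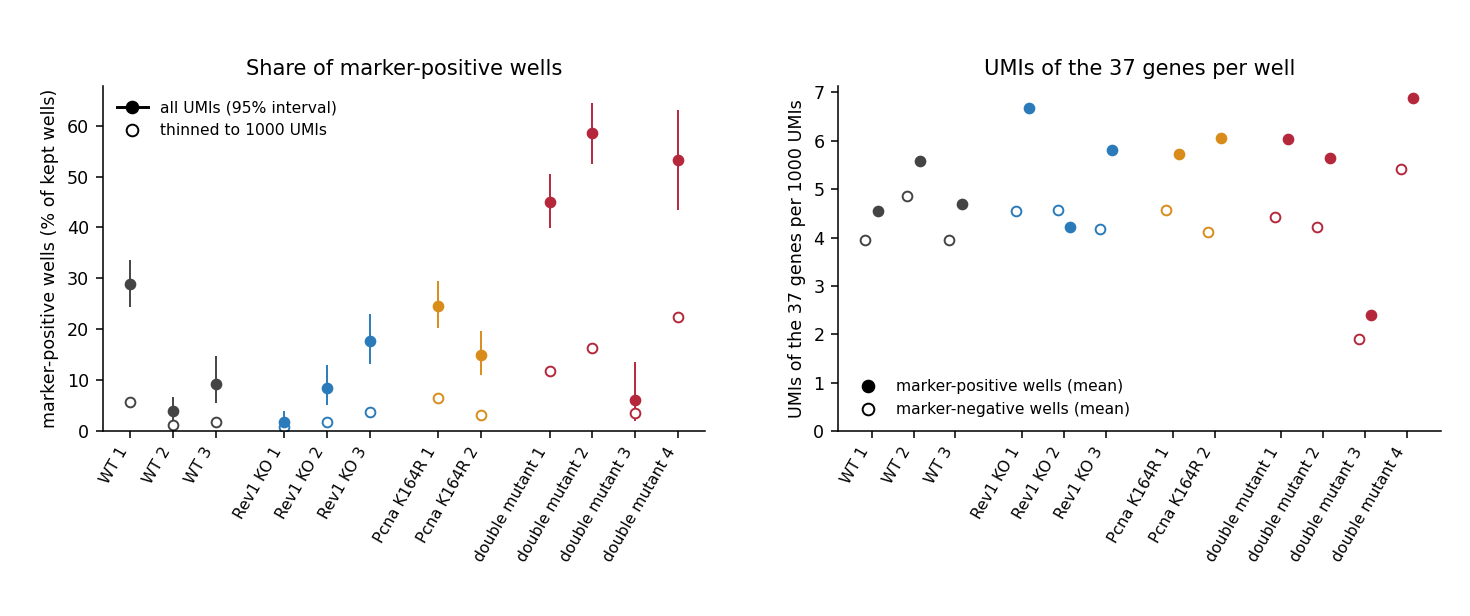
Left, the share of kept wells with a Klf1 or Rhd UMI in each plate, in percent, with exact 95% intervals (filled) and after thinning each well to 1000 UMIs (open). Right, the mean number of UMIs of the 37 genes per 1000 UMIs of a well, in marker-positive (filled) and marker-negative wells (open) of each plate, higher in the positive wells of 11 of 12 plates.

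Marker-positive wells were deeper than the others in all 12 plates, with median UMI totals of 2040 to 42296 against 1566 to 25828. Other erythroid genes went with the markers: all 11 that were tested were higher, Gata1 by 3.48 ± 0.20 and the erythropoietin receptor Epor by 4.01 ± 0.14 on the log2 scale. Progenitor genes went the other way: Ly6a, which encodes Sca-1, was lower by 1.49 (log2 difference -1.49 ± 0.10), while Kit did not pass (-0.12 ± 0.07, adjusted p = 0.188 by edgeR). All 6 stem cell and all 4 lymphoid markers tested were lower. All 4 macrophage markers were higher too, with a summed median of 305 CPM against 61.0, and their part in the results was not tested. Hepatocyte markers were near the floor in both, at summed medians of 6.49 and 7.04 CPM. These macrophage and hepatocyte sums are before TMM.

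Of the 37 genes, 27 were higher in marker-positive wells, and none were lower, by edgeR's quasi-likelihood test with plate as a term and Benjamini-Hochberg adjustment over 12127 genes. In this comparison 55.3% of all genes passed, 25.7% higher and 29.5% lower. The median difference of the 37 was 0.42 on the log2 scale, against -0.06 over all genes. By role, 10 of 11 licensing genes rose, 3 of 4 of helicase activation, 3 of 3 of S-phase entry, 2 of 3 of nucleotide supply, 6 of 12 fork genes and 3 of 4 of chromatin and histone supply. In sums over wells, fewer cells of a type and less RNA per cell cannot be told apart. Below, levels are the lowest, median and highest CPM over the 12 plates. For most genes the lowest positive value is that of double mutant replicate 3, which had 5 marker-positive wells, and adjusted p-values are edgeR's.

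**Figure D2:**
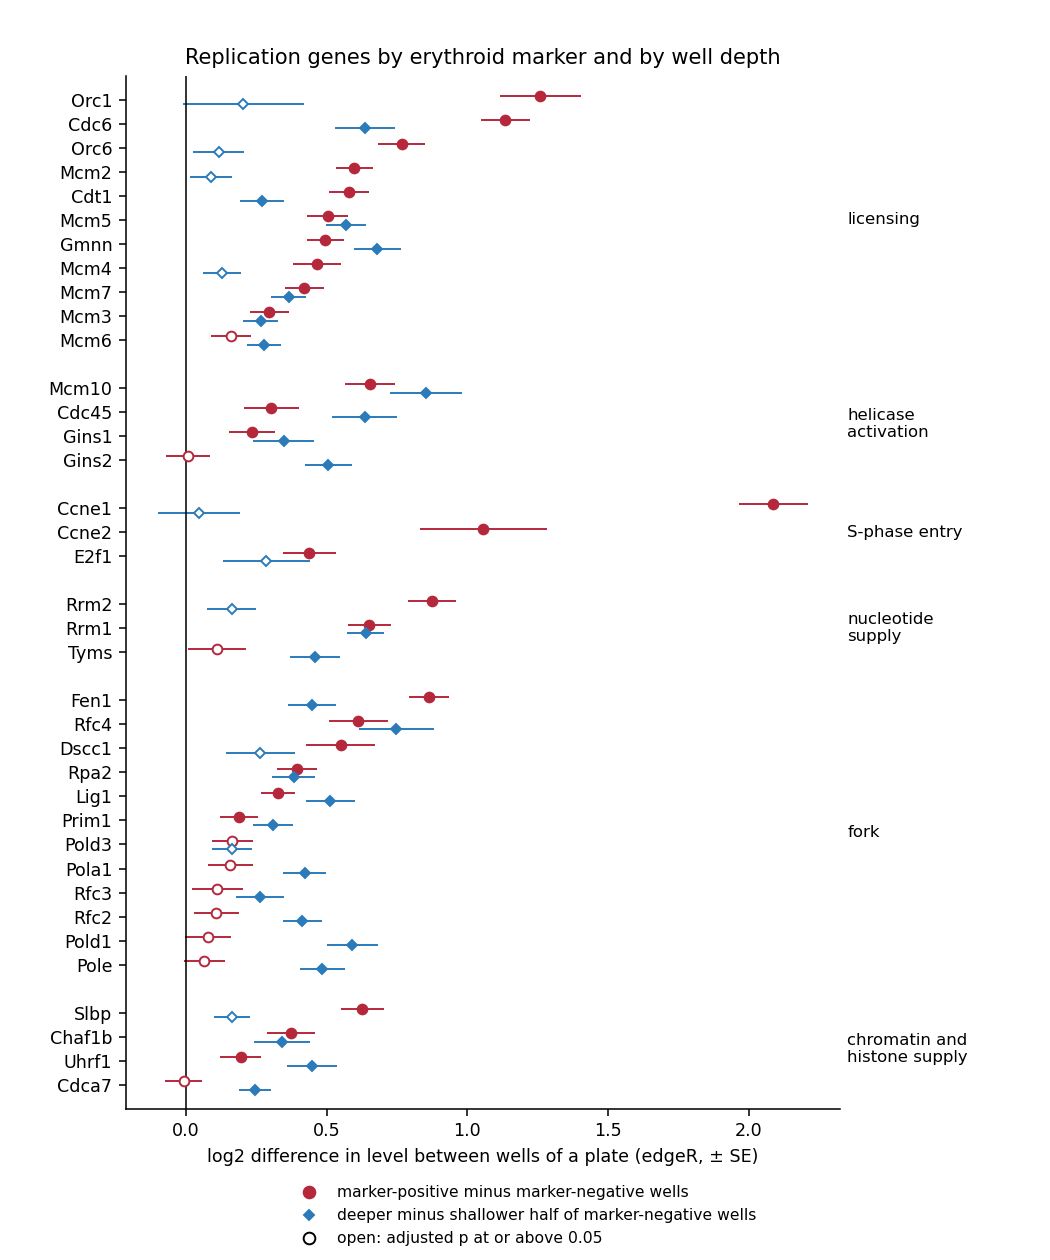
Log2 differences of the 37 genes by role with standard errors (horizontal bars): marker-positive minus marker-negative wells of a plate (circles), and deeper minus shallower marker-negative wells of a plate (diamonds). Filled symbols passed an adjusted p of 0.05; Ccne1 is farthest right at 2.09 by marker and near 0 by depth, while Gins2, Pole, Pold1 and Cdca7 are near 0 by marker and to the right by depth.

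Ccne1, one of the E-type cyclins that start S phase, had the largest difference of the 37. Its level was 11.9, 20.7 and 39.8 CPM in marker-negative wells and 0, 99.3 and 150.5 CPM in marker-positive wells, a log2 difference of 2.09 ± 0.12 (4.25-fold, adjusted p = 6.81e-15). It was higher in 11 of 12 plates, and outside double mutant replicate 3, where the positive wells held no Ccne1 UMI, every positive value lay above every negative value. Ccne2, the other E-type cyclin, was much scarcer, at 0, 3.89 and 12.3 CPM against 0, 7.46 and 15.1 CPM, and rose by 1.06 ± 0.23 (adjusted p = 2.39e-04). E2f1, a transcription factor of S-phase entry, went from 23.1, 38.3 and 50.6 CPM to 25.7, 47.0 and 69.6 CPM, a log2 difference of 0.44 ± 0.10 (adjusted p = 2.70e-04), with overlapping ranges.

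The licensing group holds the origin binders and loaders and the helicase itself. Orc1, the ATPase subunit of the origin recognition complex that joins it in G1, was at 0, 8.77 and 19.2 CPM in negative and 0, 19.8 and 36.3 CPM in positive wells, a log2 difference of 1.26 ± 0.14 (adjusted p = 1.84e-08). Cdc6, the loader that binds this complex, was at 34.3, 46.0 and 80.9 and 47.2, 102 and 138 CPM, 1.14 ± 0.09 (adjusted p = 4.54e-12). Orc6, the smallest origin subunit, was at 35.9, 50.1 and 96.2 and 0, 76.4 and 175 CPM, 0.77 ± 0.08 (adjusted p = 5.85e-09). For all 3 the positive wells were higher in 11 of 12 plates, the exception being double mutant replicate 3. Cdt1, the partner that brings the helicase, was at 80.9, 136 and 168 against 47.2, 203 and 281 CPM, 0.58 ± 0.07 (adjusted p = 4.00e-08). Its inhibitor geminin, Gmnn, was at 30.3, 94.3 and 118 against 47.2, 134 and 173 CPM, 0.50 ± 0.07 (adjusted p = 2.47e-07), and was higher in all 12 plates.

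Mcm2 to Mcm7 are the 6 subunits of the MCM helicase, and their estimates ran from 0.16 to 0.60. Mcm2 was at 80.9, 173 and 246 CPM in negative and 47.2, 279 and 358 CPM in positive wells, 0.60 ± 0.07 (adjusted p = 8.63e-09). Mcm5 was at 80.9, 213 and 285 and 94.5, 309 and 364 CPM, 0.50 ± 0.07 (adjusted p = 1.18e-06), and Mcm4 at 117, 168 and 223 and 142, 202 and 349.7 CPM, 0.47 ± 0.08 (adjusted p = 2.83e-05). These 3 subunits were higher in 11, 11 and 8 of 12 plates. Mcm7 was at 235, 268 and 377 and 47.2, 364 and 502 CPM, 0.42 ± 0.07 (adjusted p = 7.99e-06), and Mcm3 at 101, 211 and 275 and 47.2, 268 and 336 CPM, 0.30 ± 0.07 (adjusted p = 5.40e-04). Mcm6, the one with the smallest difference, was at 91.0, 446 and 651 and 0, 501 and 673 CPM and did not pass (0.16 ± 0.07, adjusted p = 0.0567). Differences between subunits were not tested.

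In helicase activation, Mcm10, which binds the loaded helicase, was at 20.2, 43.6 and 55.6 CPM in negative and 47.2, 70.9 and 88.0 CPM in positive wells, 0.65 ± 0.09 (adjusted p = 3.36e-07), higher in all 12 plates. Cdc45, a part of the active helicase, was at 10.1, 55.2 and 76.0 and 40.0, 65.5 and 121 CPM, 0.30 ± 0.10 (adjusted p = 0.00909). Gins1 and Gins2 encode subunits of the GINS complex. Gins1 passed with 40.0, 65.7 and 113 and 0, 82.1 and 124 CPM (0.23 ± 0.08, adjusted p = 0.0167), while Gins2, at 40.5, 65.2 and 86.4 and 0, 64.3 and 84.2 CPM, did not (0.01 ± 0.08, adjusted p = 0.942) and was higher in 3 of 12 plates.

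Both subunits of ribonucleotide reductase rose. Rrm2, the subunit whose amount limits the enzyme in S phase, was at 121, 174 and 425 CPM in negative and 142, 307 and 751 CPM in positive wells, 0.88 ± 0.09 (adjusted p = 6.71e-10). Rrm1, the large subunit, was at 182, 245 and 348 and 94.5, 424 and 525 CPM, 0.65 ± 0.08 (adjusted p = 1.77e-08). Tyms, thymidylate synthase, did not pass, at 39.0, 55.9 and 384 and 20.6, 56.3 and 95.9 CPM (0.11 ± 0.10, adjusted p = 0.37). Its highest negative value was that of double mutant replicate 3.

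Of the 12 fork genes, 6 passed, and none of the 4 subunits of replicative polymerases was among them. Fen1, the nuclease that trims flaps between Okazaki fragments, was at 70.8, 128 and 198 CPM in negative and 0, 230.3 and 350.0 CPM in positive wells, 0.86 ± 0.07 (adjusted p = 2.26e-11). Lig1, the ligase that seals them, was at 147, 173 and 253 and 179, 206 and 256 CPM, 0.33 ± 0.06 (adjusted p = 3.57e-05). Prim1, the primase that starts them, was at 10.1, 127 and 159.6 and 0, 139 and 226 CPM, 0.19 ± 0.07 (adjusted p = 0.0197). Rpa2, of the complex that coats single-stranded DNA, was at 101, 143 and 189 and 0, 183 and 237 CPM, 0.39 ± 0.07 (adjusted p = 2.83e-05). Of the clamp loader subunits, Rfc4 was at 23.3, 32.7 and 70.8 and 0, 46.4 and 126 CPM, 0.61 ± 0.10 (adjusted p = 1.20e-05), and Dscc1, of the alternative loader that serves cohesion, at 10.1, 25.9 and 36.0 and 0, 38.2 and 55.3 CPM, 0.55 ± 0.12 (adjusted p = 3.61e-04). The clamp loader subunits Rfc2 and Rfc3 and the polymerase subunits Pola1, Pole, Pold1 and Pold3 differed by 0.07 to 0.16, with adjusted p from 0.0587 to 0.465 by edgeR.

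In chromatin and histone supply, Slbp, which binds the end of histone mRNAs, was at 80.9, 181 and 216 CPM in negative and 94.5, 277 and 402 CPM in positive wells, 0.63 ± 0.08 (adjusted p = 4.75e-08). Chaf1b, of the complex that sets histones behind the fork, was at 10.1, 46.5 and 75.0 and 0, 63.7 and 89.4 CPM, 0.37 ± 0.09 (adjusted p = 4.78e-04). Uhrf1, which carries DNA methylation through replication, was at 91.1, 135 and 219 and 115, 143 and 242 CPM, 0.20 ± 0.07 (adjusted p = 0.0247). Cdca7, a partner of the remodeller Hells, was at 40.5, 199 and 247 and 0, 200.3 and 232 CPM, did not pass (-0.01 ± 0.07, adjusted p = 0.933) and was higher in 5 of 12 plates. By DESeq2, which called 51.8% of all genes, it was the 1 member lower in positive wells (-0.15 ± 0.06, adjusted p = 0.0152).

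**Figure D3:**
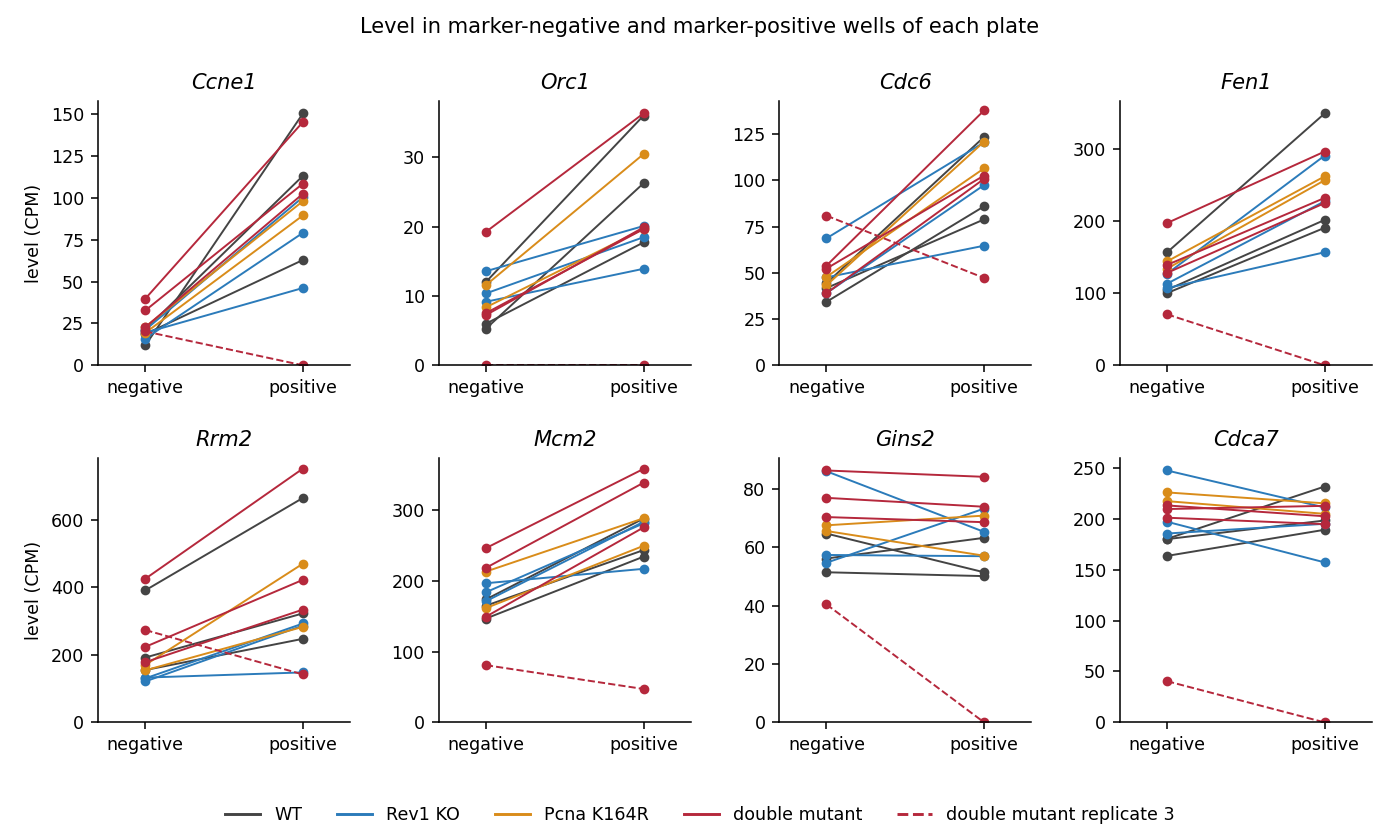
Levels (CPM, linear axis from 0) of 8 of the genes in the marker-negative and marker-positive wells of each plate, 1 line per plate coloured by genotype. Ccne1, Orc1, Cdc6, Fen1, Rrm2 and Mcm2 slope upward in every plate but double mutant replicate 3 (dashed, 5 positive wells), and Gins2 and Cdca7 have no common slope.

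Because positive wells were deeper, the marker-negative wells of each plate were also split at their own median depth. Of the 36 members testable there, 26 were higher in the deeper wells and none lower by edgeR, when 25.2% of 11076 genes passed. Across both comparisons the members parted: 17 passed in both, 9 by marker and not by depth, 9 by depth and not by marker, and Pold3 in neither; the difference between the 2 effects was not tested. Passing by marker alone were Mcm2, Mcm4, Orc1, Orc6, Ccne1, Rrm2, E2f1, Slbp and Dscc1. Ccne1 differed by 0.05 ± 0.15 between deeper and shallower wells (adjusted p = 0.853), Orc6 by 0.12 ± 0.09 (adjusted p = 0.374) and Rrm2 by 0.16 ± 0.09 (adjusted p = 0.176). Passing by depth alone were Mcm6, Gins2, Tyms, Pola1, Pole, Pold1, Rfc2, Rfc3 and Cdca7. Pold1 differed by 0.59 ± 0.09 (adjusted p = 1.39e-05) and Gins2 by 0.51 ± 0.08 (adjusted p = 3.15e-05). Mcm10, with 0.85 ± 0.13, and Rfc4, with 0.75 ± 0.13, had the largest depth differences of the 36.

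Depth moved with the markers, and no test separated them. The marker value was above the depth value for 18 of the 36 members. The marker comparison was repeated in 3 further settings, of which the full thinning was planned and the other two were chosen after seeing the data. Among the wells at or above the median depth of each plate, 23 members passed (54.3% of genes), all of them among the 27, with Ccne1 at 2.17 ± 0.12. Calling the marker after thinning left 7 of the 12 plates with at least 5 positive wells, 1 of WT, 1 of Rev1 knockout, 2 of PcnaK164R/K164R and 3 of the double mutant. In these 7 plates, with counts at full depth, 27 passed (57.8% of genes), 25 of them shared, with Ccne1 at 1.62 ± 0.17. With counts thinned as well, the same plates gave 1992 testable genes (19.7% passed). Among them were 22 members, of which 2 passed, Rrm1 (0.53 ± 0.21, adjusted p = 0.049 by edgeR) and Rrm2 (0.55 ± 0.20, adjusted p = 0.0314). Per well, the 37 genes took on average 3.94 to 4.86 of every 1000 UMIs in the negative and 4.55 to 5.58 in the positive wells of the WT plates. They took 1.90 to 5.42 and 2.40 to 6.88 in the double mutant plates.

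The wider gene lists gave the setting. Of 60 other replication genes, 43 passed by marker, 37 higher and 6 lower, with a median of 0.31. Those with the smallest p were Orc2 (1.14 ± 0.08) and Orc5 (1.22 ± 0.10), further origin subunits, Pole3 (1.10 ± 0.11), a small subunit of polymerase epsilon, and the histone chaperone Asf1b (0.77 ± 0.08). The lower ones were Cdk2, Dctd, E2f3, Pold4, Rbl1 and Samhd1, of which Samhd1 degrades nucleotides and Cdk2 is the kinase partner of cyclin E (-0.32 ± 0.07). The clamp gene Pcna itself rose by 0.53 ± 0.07. Of 25 G2 and mitosis genes, 6 were higher and 5 lower by marker (median 0.10), while all 25 were higher in the deeper marker-negative wells (median 0.90).

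The marker difference was then taken within each genotype. In WT 15 members passed (22.2% of all genes), in Rev1 knockout 13 (17.5%), in PcnaK164R/K164R 15 (24.2%) and in the double mutant 22 (25.7%), all of them higher. Some single plates carry much of these counts. Without WT replicate 1, 9 members passed in WT (13.6% of genes). Without Rev1 knockout replicate 1 or 3, 7 (15.8%) and 2 (3.34%) passed in Rev1 knockout, and without either PcnaK164R/K164R plate 6 passed there (10.4% and 9.52%). Without double mutant replicate 1 or 2, 14 (15.9%) and 13 (17.0%) passed in the double mutant. With read counts in place of UMIs, 2 passed in WT (3.52%), 1 in the double mutant (1.4%) and 0 by edgeR in each single mutant (1.08% in Rev1 knockout and 0.618% in PcnaK164R/K164R). In these single mutants 11 and 5 members had an unadjusted p under 0.05, as did 1756 and 1299 of 14245 genes. With UMIs, Ccne1 rose in each genotype: by 2.44 ± 0.25 in WT, 1.95 ± 0.26 in Rev1 knockout, 2.16 ± 0.25 in PcnaK164R/K164R and 1.89 ± 0.20 in the double mutant. Cdc6 did so by 1.15 ± 0.20, 0.91 ± 0.19, 1.30 ± 0.19 and 1.17 ± 0.16 in the same order. When the difference itself was tested between double mutant and WT, no member passed by edgeR (0 at an unadjusted p under 0.05, against 633 of 12127 genes) or by DESeq2, and 0.0577% and 0.0491% of all genes did. The smallest p values were those of Prim1 (0.36 ± 0.20, adjusted p = 0.991), Ccne1 (-0.55 ± 0.32, adjusted p = 0.991) and Rrm1 (-0.34 ± 0.21, adjusted p = 0.991). The smallest p in the other groups were those of Mcm4 (0.32 ± 0.22, adjusted p = 1), Cdca7 (-0.26 ± 0.19, adjusted p = 1) and Mcm10 (-0.23 ± 0.26, adjusted p = 1).

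The second comparison asked how the 37 genes differ by genotype over all kept wells, with sort session as a term. Against WT, 2 members were higher in the double mutant and none lower by edgeR, when 4.21% of 12221 genes passed, 1.8% higher and 2.41% lower. These were Ccne1 and Cdc6. The median difference of the 37 was 0.38, with 32 of them above 0, against -0.04 over all genes tested. By role the medians were 0.69 for nucleotide supply, 0.42 for helicase activation, 0.40 for licensing, 0.28 for S-phase entry, 0.26 for chromatin and histone supply and 0.16 for the fork genes.

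Cell type markers moved with this comparison, and their part in the results was not tested. Ly6a was lower in the double mutant (log2 difference -1.47 ± 0.26, adjusted p = 0.0159 by edgeR). The 4 LSK markers summed to 947 to 1178 CPM (before TMM) in WT and 178 to 687 in the double mutant, and 2 of the 4 passed as lower. The 6 stem cell markers summed to 1041 to 1146 and 263 to 539 CPM, with 3 of 6 lower, and the lymphoid ones to 471 to 593 and 75.1 to 194 CPM, with 3 of 4 lower. None of these 3 sums overlapped between the 2 genotypes. Of 11 erythroid markers 3 passed as higher, with sums of 757 to 1141 CPM in WT and 526 to 2484 in the double mutant. G2 and mitosis genes, whose products work after S phase, had a median of 0.54, above that of the members by a difference that was not tested. Of these, 24 of 25 were above 0 and 15 had an unadjusted p under 0.05. The members had 9 of 37 at an unadjusted p under 0.05, against 2778 of all 12221 genes, of which 5700 were above 0. Of the 25 G2 and mitosis genes, Birc5, Ccnb1 and Gtse1 passed, all higher, and were named after their values were seen.

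Flow cells, read from the run codes in the titles, were not shared either: no double mutant plate ran on a flow cell that held a WT plate. With flow cell in place of session as a term, no gene passed between double mutant and WT (0.0%), against 1376 at an unadjusted p under 0.05. In that fit Ccne1 was at 1.44 ± 0.56 (adjusted p = 0.432) and Cdc6 at 0.55 ± 0.33 (adjusted p = 0.603) by edgeR, and DESeq2 was not run with that term.

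Ccne1 was at 34.9, 26.9 and 32.7 CPM in WT replicates 1 to 3, at 22.9, 22.5 and 31.3 CPM in Rev1 knockout and at 41.2 and 37.3 CPM in PcnaK164R/K164R. In double mutant replicates 1 to 4 it was at 70.7, 77.1, 17.4 and 107 CPM. Replicates 1, 2 and the library labelled double mutant replicate 4 lay above all other plates, and replicate 3, with 2 Ccne1 UMIs, below them. The mean was 68.0 ± 37.2 CPM (SD, n = 4) against 31.5 ± 4.16 (SD, n = 3) in WT, a log2 difference of 1.36 ± 0.26 (adjusted p = 0.0202) by edgeR.

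Cdc6 was at 54.7, 49.0 and 41.4 CPM in WT, 68.2, 48.4 and 52.2 CPM in Rev1 knockout, 65.0 and 57.5 CPM in PcnaK164R/K164R and 76.9, 80.8, 78.1 and 106 CPM in double mutant replicates 1 to 4. Its 4 double mutant values lay above all others, though that of replicate 3 rests on 9 UMIs. The difference from WT was 0.82 ± 0.20 (adjusted p = 0.0397) by edgeR.

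In the other role groups no member passed. The smallest p values there by edgeR were those of Rrm1 (0.69 ± 0.21, adjusted p = 0.0771), Mcm10 (0.58 ± 0.20, adjusted p = 0.113), Rfc4 (0.66 ± 0.25, adjusted p = 0.143) and Chaf1b (0.69 ± 0.31, adjusted p = 0.206). Rrm1 was at 236, 255 and 226 CPM in WT and 418, 414, 174 and 422 CPM in the double mutant, where all but replicate 3 exceed WT and replicate 3 is below it. Mcm10 was at 53.0, 32.5 and 34.5 CPM in WT and 65.2, 68.4, 26.0 and 64.5 CPM in the double mutant. Rfc4 was at 30.2, 38.7 and 33.4 CPM and 32.2, 41.4, 60.8 and 82.8 CPM, and Chaf1b at 46.4, 34.0 and 37.4 CPM and 80.6, 66.5, 8.68 and 71.4 CPM. Mcm10 and Chaf1b were above WT in replicates 1, 2 and the library labelled double mutant replicate 4 and below it in replicate 3, while for Rfc4 replicate 1 lay within WT and the others above it. Of the 60 other replication genes 6 passed, 5 higher and 1 lower. The 4 with the smallest p were Asf1b (1.18 ± 0.22), Pole3 (1.26 ± 0.24) and Orc2 (0.88 ± 0.20), all higher, and Samhd1 (-0.76 ± 0.17). Pcna did not pass (0.41 ± 0.33, adjusted p = 0.506 by edgeR).

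**Figure D4:**
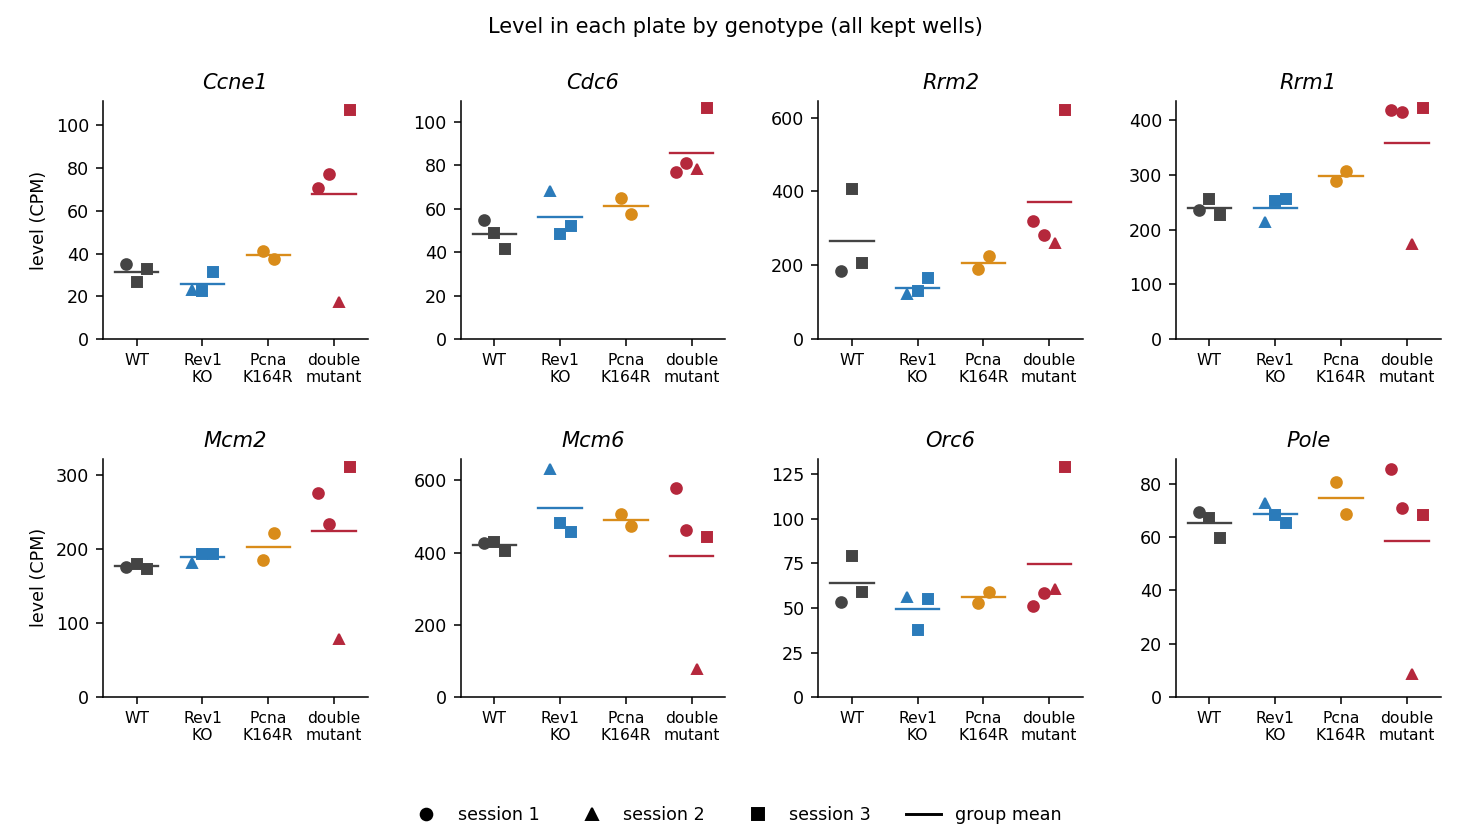
Levels (CPM, linear axis from 0) of 8 of the genes in each plate by genotype over all kept wells, with marker shapes for sort sessions and a line at the group mean. Ccne1 and Cdc6 passed between double mutant and WT, Ccne1 and Rrm2 between double mutant and Rev1 knockout, and double mutant replicate 3 (triangle) is low for most genes.

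These counts rest on single plates. Without double mutant replicate 3, 16 members passed between double mutant and WT (16.2% of genes), all higher and among them Rrm1 (0.82 ± 0.12), Orc1 (0.95 ± 0.27), Rrm2 (0.87 ± 0.23), Mcm5 (0.71 ± 0.19) and Mcm2 (0.68 ± 0.14). Without Rev1 knockout replicate 1, which leaves double mutant replicate 3 alone in its session, 17 passed (15.9% of genes). Left out 1 at a time, no member passed without double mutant replicate 2 (48 of 12199 genes did) or the library labelled double mutant replicate 4 (12 of 12157). None passed without WT replicate 2 (81 of 12118) or WT replicate 3 (116 of 12118) either. In each of 5 other omissions (double mutant replicate 1, either PcnaK164R/K164R plate, Rev1 knockout replicate 2 or 3) Ccne1 alone of the members passed. Between 219 and 386 of all genes passed in those 5. Without the library labelled double mutant replicate 4, Ccne1 was at 0.89 ± 0.31 (adjusted p = 0.312 by edgeR) and Cdc6 at 0.49 ± 0.22 (adjusted p = 0.429). Within session 1, Ccne1 differed by 1.09 ± 0.23 and no member passed (0.00795% of genes). Within session 3, where that library is the only double mutant plate, it differed by 1.86 ± 0.26 and 10 passed (11.7% of genes). DESeq2 called 7 members, all higher, with 16.5% of all genes, adding Gins1, Mcm7, Mcm10, Rrm1 and Rrm2.

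Since the share of marker-positive wells was higher in 3 of the 4 double mutant plates, the genotypes were compared within each class of wells. In marker-negative wells no member passed between double mutant and WT by edgeR (3 at an unadjusted p under 0.05, against 1640 of all genes), when 0.419% of 11942 genes did, and the median of the 37 was 0.21, against 0.46 for the G2 and mitosis genes. Ly6a was at -0.95 ± 0.24 there (adjusted p = 0.104), and 2 of 4 lymphoid markers passed as lower. Ccne1 differed by 0.77 ± 0.30 (adjusted p = 0.278) and Cdc6 by 0.23 ± 0.20 (adjusted p = 0.679) there. With DESeq2, where 5.53% of genes passed, Rrm1 alone did (0.53 ± 0.14, adjusted p = 0.00657), and edgeR gave it 0.49 ± 0.20 (adjusted p = 0.284). It passed edgeR without double mutant replicate 3 (0.61 ± 0.14, adjusted p = 0.0418), when 3.4% of genes did, and without Rev1 knockout replicate 1. The smallest p values of the other groups by edgeR were those of Rfc4 (0.48 ± 0.21, adjusted p = 0.346), Gins1 (0.33 ± 0.20, adjusted p = 0.521) and Chaf1b (0.37 ± 0.31, adjusted p = 0.671). In marker-positive wells no member passed either (1 at an unadjusted p under 0.05, against 975 of all genes), when 1.42% of 9734 genes did, and the median was 0.17, against 0.47 for the G2 and mitosis genes. All 4 macrophage markers were lower in the double mutant there, and Ly6a was at -0.93 ± 0.34 (adjusted p = 0.249). Ccne1 was at 0.34 ± 0.28 (adjusted p = 0.803) there and Cdc6 at 0.32 ± 0.25 (adjusted p = 0.78) by edgeR. The smallest p was that of Chaf1b (0.60 ± 0.28, adjusted p = 0.469), followed in their groups by Cdc45 (0.43 ± 0.27, adjusted p = 0.7), Dscc1 (0.43 ± 0.31, adjusted p = 0.748), Mcm5 (0.39 ± 0.28, adjusted p = 0.75) and Rrm2 (0.44 ± 0.33, adjusted p = 0.769) by edgeR. Both sums hold fewer UMIs than the whole plates, and the change from the comparison over all wells was not tested.

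**Figure D5:**
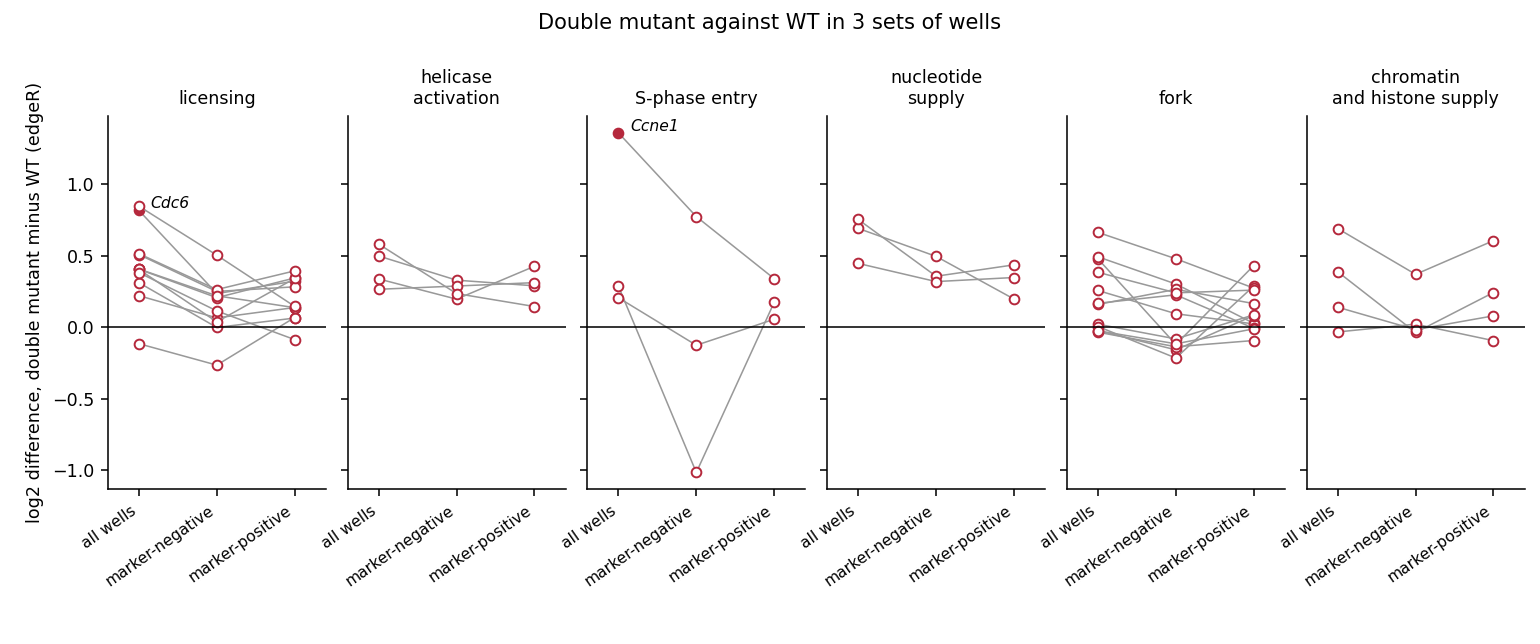
Log2 differences between double mutant and WT of the 37 genes by role (1 line per gene) over all kept wells, marker-negative wells and marker-positive wells. Filled points passed an adjusted p of 0.05 by edgeR, which only Ccne1 (1.36) and Cdc6 (0.82) did, over all wells; Ccne1 is at 0.77 and 0.34 in the 2 classes.

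Against Rev1 knockout, 2 members were higher in the double mutant by edgeR, when 1.75% of all genes passed. Rrm2 was at 123, 130.4 and 166 CPM in Rev1 knockout and 319.9, 282, 260.4 and 620.4 CPM in the double mutant, without overlap, and at 186, 406 and 207 CPM in WT. Its difference was 1.70 ± 0.30 (adjusted p = 0.0237), and that of Ccne1, whose plate values are given above, was 1.49 ± 0.32 (adjusted p = 0.0392) by edgeR. With flow cell as the term neither passed (0.0988% of genes), with Rrm2 at 1.27 ± 0.51 (adjusted p = 0.461) and Ccne1 at 1.58 ± 0.46 (adjusted p = 0.331). Ly6a was lower here too (-2.07 ± 0.32, adjusted p = 0.0139), as were 3 of 4 LSK and 3 of 4 lymphoid markers. The smallest p of the other groups were those of Rfc4 (1.05 ± 0.29, adjusted p = 0.0944), Orc6 (1.00 ± 0.29, adjusted p = 0.1), Uhrf1 (0.34 ± 0.23, adjusted p = 0.457) and Cdc45 (0.28 ± 0.28, adjusted p = 0.635) by edgeR. Without double mutant replicate 3, 7 members passed (4.57% of genes), and 7 without Rev1 knockout replicate 1 (4.52%). Rrm2 alone of the members passed without double mutant replicate 1, either PcnaK164R/K164R plate, WT replicate 2 or WT replicate 3, when between 100 and 181 genes passed. No member passed without double mutant replicate 2 (28 of 12199 genes did) or the library labelled double mutant replicate 4 (2 of 12157). None passed without Rev1 knockout replicate 2 (7 of 12166) or 3 (62 of 12180) either. Of the G2 and mitosis genes, 2 of 25 were higher (median 0.44). Of the other replication genes none passed, and the 4 with the smallest p were Pold4 (-1.48 ± 0.35), Orc5 (1.01 ± 0.24), Dck (1.28 ± 0.31) and Ctps (0.79 ± 0.19).

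Against PcnaK164R/K164R no member passed by edgeR or DESeq2 (2 at an unadjusted p under 0.05 by edgeR, against 1174 of 12221 genes), when 0.0409% of all genes did by edgeR and 2.97% by DESeq2. The smallest p in each group by edgeR were those of Ccne1 (1.00 ± 0.30, adjusted p = 0.351), Gins1 (0.62 ± 0.23, adjusted p = 0.428), Cdc6 (0.46 ± 0.23, adjusted p = 0.555), Rrm1 (0.44 ± 0.24, adjusted p = 0.595), Lig1 (0.37 ± 0.22, adjusted p = 0.622) and Chaf1b (0.41 ± 0.34, adjusted p = 0.742). Gins1 was at 68.3 and 72.4 CPM there and 116, 93.9, 43.4 and 79.1 CPM in the double mutant. These comparisons share the double mutant plates, and those against WT share the WT plates.

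In neither single mutant did a member pass against WT. In Rev1 knockout 0.0% of all genes passed by edgeR, and 2 members had an unadjusted p under 0.05, as did 1114 of 12221 genes, while DESeq2 called no member and 1.33% of genes. DESeq2 size factors shifted the median of all genes in this comparison to -0.24, from 0.01 by edgeR. The lowest p were those of Rrm2 (-0.95 ± 0.30, adjusted p = 0.517), Mcm10 (0.58 ± 0.23, adjusted p = 0.528), Orc6 (-0.61 ± 0.29, adjusted p = 0.551), Rfc2 (0.45 ± 0.22, adjusted p = 0.553), Chaf1b (0.64 ± 0.35, adjusted p = 0.591) and Ccne2 (0.49 ± 0.52, adjusted p = 0.767) by edgeR. Rrm2 lies below WT in all 3 Rev1 knockout plates, but WT replicate 2, at 406 CPM, stands well above WT replicates 1 and 3. In PcnaK164R/K164R 0.0% of genes passed as well, no member had an unadjusted p under 0.05 (239 of 12221 genes did) and DESeq2 called none of the members and 0.0258% of genes. The differences of the 37 ran from -0.35 to 0.63 with a median of 0.07, and the smallest p of each group were those of Rfc4 (0.63 ± 0.32, adjusted p = 1), Cdc6 (0.35 ± 0.25, adjusted p = 1), Ccne1 (0.35 ± 0.33, adjusted p = 1), Tyms (0.37 ± 0.39, adjusted p = 1), Chaf1b (0.28 ± 0.38, adjusted p = 1) and Mcm10 (0.12 ± 0.25, adjusted p = 1) by edgeR. Rrm1 was at 289 and 306 CPM in these plates, above the 3 WT plates.

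The interaction of both changes asks whether the double mutant departs from the sum of the single ones. No member passed by edgeR (2 at an unadjusted p under 0.05, against 640 of 12221 genes), nor did any other gene (0.0%). The smallest p values were those of Rrm2 (1.50 ± 0.41, adjusted p = 0.435), Ccne1 (1.14 ± 0.40, adjusted p = 0.713), Orc6 (0.71 ± 0.38, adjusted p = 0.975), Rfc2 (-0.38 ± 0.29, adjusted p = 0.985), Cdca7 (-0.52 ± 0.47, adjusted p = 1) and Gins1 (0.30 ± 0.30, adjusted p = 1) by edgeR. DESeq2 called Rrm2 alone (1.53 ± 0.39, adjusted p = 0.021), when 0.655% of genes passed it. With 2 to 4 plates a genotype, of which 1 is thin and 1 is in doubt by its Rev1 level, a difference that missed the threshold was not detectable at this depth and is not shown to be absent.

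Promoter letters and the marker comparison can be set side by side as a description. Of the 27 members higher in marker-positive wells, 22 have a promoter entry and 8 of these hold the E2F-type motif shown above. Of the 10 that did not pass, 7 have an entry and 6 hold it.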

How the data were processed

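Libraries of 12 plates were made with SORT-seq, per the labels' protocols, a method that reads mRNA 3' ends carrying a well barcode and a UMI. BWA 0.7.15 and GRCm38 (mm10) are named without a role, per the submitters' processing notes. The counter and gene models were not given in the sources used here. For each plate the authors deposited whole-number counts of observed UMIs per gene and well, whole-number read counts, and expected counts, which the authors derived from the UMI numbers by allowing for tags that were drawn repeatedly. All plates use the same 384 well barcodes, and the series' text speaks of smaller plates.

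Observed UMIs of wells with at least 1000 UMIs outside the spike-ins were summed per plate, or per plate and marker class, with the plate as replicate. Marker classes needed at least 5 wells. No doublet caller was run on these sorted wells. Genes were tested with edgeR 4.0.16 under R 4.3.3 (TMM, default filter, quasi-likelihood F-test), with Benjamini-Hochberg adjustment over all genes tested at 0.05. Genotypes were fitted with sort session as a term, and marker classes with plate as a term. Klf1 and Rhd define the classes, so their own differences are not reported. Values in CPM follow TMM, except the sums of cell type markers, which are before TMM, and log2 differences carry a standard error. Shares were compared with exact permutation tests over plates (scipy 1.17.1). The genotype and class fits were run before use on simulated counts with 200 genes changed 4-fold. All simulated plates had the same gene profile and classes of equal size, so this does not cover plates of unlike composition or uneven classes. Plates of 1 genotype were compared by chi-square and none were near-identical. Per degree of freedom the value was 131 to 373 for pairs with double mutant replicate 3, and 8.11 to 34.0 for all other pairs. Promoters are RefSeq windows of GRCm38.p6.

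Named with all values are members past the threshold, and otherwise the member with the smallest p of each role group. Of the other replication genes up to 4 are named by p, and those lower in marker-positive wells were named after their values were seen. The members, roles, lists and comparisons were chosen with earlier results of these data known. Alternatives were DESeq2 1.42.0, no filter, expected counts (rounded), read counts, no batch term, flow cell, other depth minimums, thinning, single sessions, other marker calls and leaving out each plate. The depth split of marker-negative wells and the comparison within marker-positive wells were added after seeing the data.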

Additional observations from a re-analysis of the deposited data

Results flagged for a closer look

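Within the 4 double mutant plates, the lowest or highest plate lay far from the other 3 for 12 of the 37 genes (Dixon's test at 95%, which chance meets in about 1 in 20 groups). The share of all genes flagged in this way was not counted, and all 37 genes share the same plates. The 12 are thus not shown to exceed what other genes do in these plates. Double mutant replicate 3, with 339 UMIs for all 37 genes, was the low one for 8: Mcm5 at 86.8 CPM against 298 to 314, Mcm10 at 26.0 CPM against 64.5 to 68.4, Cdt1 at 78.1 CPM against 179 to 198, Gmnn at 34.7 CPM against 130.2 to 144, Cdc45 at 17.4 CPM against 69.0 to 78.8, Rrm1 at 174 CPM against 414 to 422, Cdca7 at 34.7 CPM against 194 to 209, Dscc1 at 8.68 CPM against 38.4 to 42.6. It was the high one for Tyms, at 347 CPM against 44.7 to 86.4. The library labelled double mutant replicate 4 was the high one for Cdc6 at 106 CPM against 76.9 to 80.8, Orc6 at 129 CPM against 51.0 to 60.8, Rrm2 at 620.4 CPM against 260.4 to 319.9.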

How the results depend on the processing

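No paired analysis was possible because replicate numbers follow the order of deposit and pair no plates. Of members called between double mutant and WT (2), other settings gave 7 with DESeq2, 4 with no filter on low counts, 1 with wells thinned to 1000 UMIs (Rrm2, while Ccne1 at 1.07 and Cdc6 at 0.51 no longer passed), 10 in session 3 alone, and 0 with read counts, with flow cell in place of session or in session 1 alone. Between double mutant and Rev1 knockout (2) they gave 8 with DESeq2, 5 with no filter, 1 with wells of at least 5000 UMIs, 1 thinned, 11 in session 3 alone, and 0 with read counts or flow cell. With no filter 1 was called between double mutant and PcnaK164R/K164R (217 of 19356 genes), and 1 in the interaction (242 of 19356), as with DESeq2 (112 of 17107). In marker-negative wells DESeq2 called 1 (619 of 11195). By marker class (27), thinning gave 2 in 7 plates and 1992 genes, where 18 of the 27 could be tested, and there Gins1 (-0.12), Gmnn (-0.11), Lig1 (-0.51), Mcm5 (-0.044) and Rpa2 (-0.13) turned sign without passing. Leaving out 1 plate at a time gave 0 to 17 members against WT, 0 to 7 against Rev1 knockout, 0 to 1 in marker-negative wells and 23 to 31 by marker class. In the first 3 of these, 12 to 2074, 2 to 590 and 0 to 460 of all genes passed. The other settings kept the count within 1.5 times. Depth limits double mutant replicate 3 most, where 1 UMI is worth 8.68 CPM. Its composition also set it apart from the other plates, with a TMM factor of 0.549.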
